A study of Homo sapiens with 4 samples.

Results

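Tissue factor, its inhibitors and the cell-surface plasminogen system were examined as 9 genes: *F3*, *TFPI*, *TFPI2*, *PLAU*, *PLAT*, *PLAUR*, *SERPINE2*, *THBD* and *PROCR*. They were taken by gene symbol from the transcript tables, where all 9 were found among 23287 genes, with 17 of the 41138 annotated transcripts between them. The genes were selected on their FPKM in these same EtOH and R5020 libraries, so the expression values below describe the set and do not test it. T47D is an established line of human luminal breast cancer cells that carries the progesterone receptor (PR). The cells, at passages 5 to 8, were plated in charcoal-stripped serum, which is poor in steroids, 24 h before harvest. They were given 10 nM R5020, a synthetic progestin, or its vehicle ethanol (EtOH) for 3 h before mRNA was sequenced. In a separate experiment PR was immunoprecipitated after 1 h of 10 nM R5020 from cells kept 3 days in the stripped serum, and its DNA was sequenced (ChIP-seq). Each condition was 1 library of 1 cell line, so no spread between replicates exists, no test of R5020 against EtOH was possible, and treatment cannot be told apart from any other difference between the cultures.

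Tissue factor, the product of *F3*, is the cell-surface receptor of coagulation factor VII and starts the clotting cascade. Tissue factor pathway inhibitor (*TFPI*) blocks the complex that tissue factor forms, whereas the endothelial receptors thrombomodulin (*THBD*) and the endothelial protein C receptor (*PROCR*) turn thrombin towards the activation of protein C, an anticoagulant. The plasminogen system works in the opposite direction to clotting: urokinase (*PLAU*), held at the cell surface by its receptor (*PLAUR*), and tissue plasminogen activator (*PLAT*) convert plasminogen to plasmin, which dissolves fibrin and degrades matrix, and serpins such as *SERPINE2* inhibit them. In tumours both systems are known at the surface of cancer cells and in the surrounding stroma and vessels.

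A pair of DNA stretches is shown first, chosen by their position relative to *F3*, the gene with the largest difference. The 1st lies in the PR binding site nearest to *F3*, 202 kb upstream, and whether it acts on *F3* was not tested. The 2nd is the part of the *F3* promoter that lies just before the start of the gene as the deposited transcripts place it. Of its 152 bases, 73 also fall in annotated exons, and none falls in a UTR or coding sequence. Both are in hg19 (GRCh37). In the 1st, read on the plus strand at chr1:95209620-95209739, capitals mark the 15 bases closest to the palindromic progesterone response element, which has the arms AGAACA and TGTTCT with any 3 bases between them. In the 2nd, read on the minus strand, which *F3* is transcribed from, at chr1:95007414-95007565, capitals mark each TGANTCA, the letters that AP-1 factors recognise, and each GGGCGG on either strand, the letters that SP1 recognises.
F3 distal PR site: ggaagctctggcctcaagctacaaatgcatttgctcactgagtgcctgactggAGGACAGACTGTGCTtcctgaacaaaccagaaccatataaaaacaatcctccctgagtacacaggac
F3 promoter: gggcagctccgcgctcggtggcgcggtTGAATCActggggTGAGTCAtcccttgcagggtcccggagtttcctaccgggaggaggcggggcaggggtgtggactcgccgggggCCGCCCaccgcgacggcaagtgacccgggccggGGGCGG

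*F3* was the gene of the set that differed most between the libraries. Its level was 1.41 FPKM, a fragment count scaled by transcript length and library size, in EtOH and 10.4 FPKM in R5020. The ratio was 7.36-fold in FPKM, with a 95% interval from 6.10 to 8.87 that covers counting error only. On the log2(FPKM + 1) scale, which holds back the ratio of low genes and is used below wherever a log2 ratio is given, the difference was 2.24. *F3* ranked 67 by this ratio among the 11018 genes that reached an FPKM of 1 in either library, the limit the study set for expressed genes. Among these genes 8 had a failed estimate in a library, 3 of them ranked above *F3*, and without the 8 its rank was 64. By level it moved from rank 9942 to rank 3127 of all genes. The depth behind these values was estimated from the deposited coverage, at 123 fragments for *F3* in EtOH and 1076 in R5020, out of 17575747 and 18101802 over all transcripts. These totals are 37.6% and 40.2% of the 46724291 and 45081388 fragments that the coverage per FPKM implies, so they do not give the depth of the libraries, and the counting intervals rest on estimates. All *F3* signal was assigned to the transcript NM_001993, the full-length form, whose Cufflinks interval ran from 1.19 to 1.63 FPKM in EtOH and from 9.66 to 11.1 FPKM in R5020. The other annotated form, NM_001178096, was listed at 0 in both libraries. The gene spans chr1:94994732-95007413 on the minus strand.

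**Figure D1:**
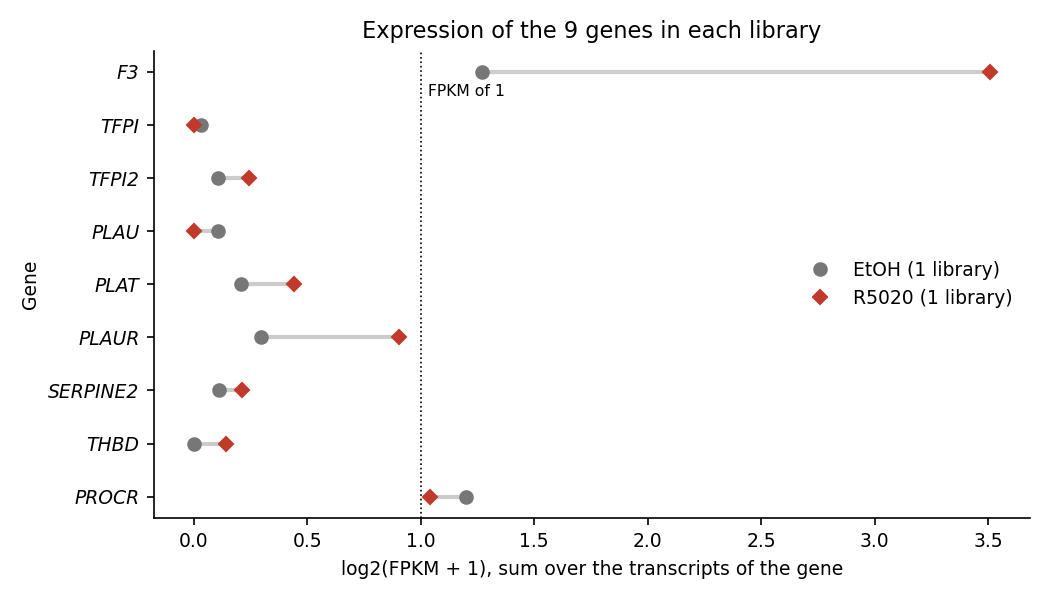
Level of each of the 9 genes as log2(FPKM + 1), with 1 grey circle for the EtOH library and 1 red diamond for the R5020 library, joined by a line. *F3* goes from 1.41 to 10.4 FPKM, *PROCR* lies close to an FPKM of 1 in both libraries, and the other 7 lie under an FPKM of 1, the dotted line, in both.

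The inhibitors of tissue factor were close to the limit of detection. *TFPI*, at chr2:188328958-188419219, was 0.0236 FPKM in EtOH, about 1 fragment, and was listed at 0 in R5020. *TFPI2*, a related inhibitor that acts on plasmin and other proteases more than on tissue factor, lies at chr7:93515745-93520065 and was 0.0779 FPKM in EtOH and 0.183 FPKM in R5020. That was 2.35-fold, but its counting interval ran from 0.744 to 7.40 on 5 and 8 fragments. A difference was therefore not detectable at this depth for *TFPI2*, and the cells that had 10.4 FPKM of *F3* had under 0.2 FPKM of each of its inhibitors measured here.

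Neither plasminogen activator reached an FPKM of 1. *PLAU* (chr10:75670862-75677258, plus strand) was 0.0763 FPKM in EtOH, about 9 fragments of transcript NM_002658, and was listed at 0 in R5020. *PLAT* (chr8:42032236-42065194, minus strand) was 0.154 FPKM in EtOH and 0.357 FPKM in R5020, a log2 ratio of 0.23. In FPKM this was 2.32-fold with a counting interval from 1.41 to 3.80, on 23 and 49 fragments. Its signal was assigned to NM_000930 in EtOH and to NM_033011 in R5020, with the other form listed at 0 each time. Both forms have the same annotated start site. Why the assignment changed was not tested, and only the sum is used below.

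The urokinase receptor *PLAUR* (chr19:44150247-44174498, minus strand) was 0.228 FPKM in EtOH and 0.873 FPKM in R5020. The log2 ratio of 0.61 was above the 1.5-fold limit of 0.58, and the ratio in FPKM was 3.84-fold with a counting interval from 2.12 to 6.95, on 14 and 56 fragments. Both levels were under 1, so *PLAUR* was not among the genes counted as expressed. Of its 3 transcripts, NM_001005377 was 0.128 FPKM in EtOH and 0.428 FPKM in R5020, and its intervals overlapped. NM_002659, which encodes the form anchored in the membrane, was listed at 0 in EtOH and was 0.445 FPKM in R5020. NM_001005376 was 0.0996 FPKM in EtOH and listed at 0 in R5020. If *PLAUR* was represented by its highest transcript in place of the sum, the log2 ratio was 0.36, under the limit. *SERPINE2* (chr2:224839765-224904036), a serpin known as protease nexin 1 that inhibits thrombin and urokinase, was 0.0796 FPKM in EtOH and 0.158 FPKM in R5020. Its ratio of 1.99-fold had a counting interval from 0.842 to 4.69, on 8 and 16 fragments, and a difference was not detectable at this depth.

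The anticoagulant receptors followed. *THBD* (chr20:23026270-23030301, minus strand), which has a single exon, was listed at 0 in EtOH and was 0.102 FPKM in R5020, about 20 fragments. *PROCR* (chr20:33759774-33765165, plus strand), the other gene of the set that passed an FPKM of 1, was 1.30 FPKM in EtOH and 1.06 FPKM in R5020. Its log2 ratio was -0.16, and the ratio in FPKM of 0.816 had a counting interval from 0.597 to 1.12, which includes no difference. The levels of *F3* and *PROCR* were close in EtOH, at a ratio of 1.09, and 9.79-fold apart in R5020. *F3* accounted for 42.1% of the summed FPKM of the 9 genes in EtOH and 79.1% in R5020, as the sum went from 3.35 to 13.1 FPKM.

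**Figure D2:**
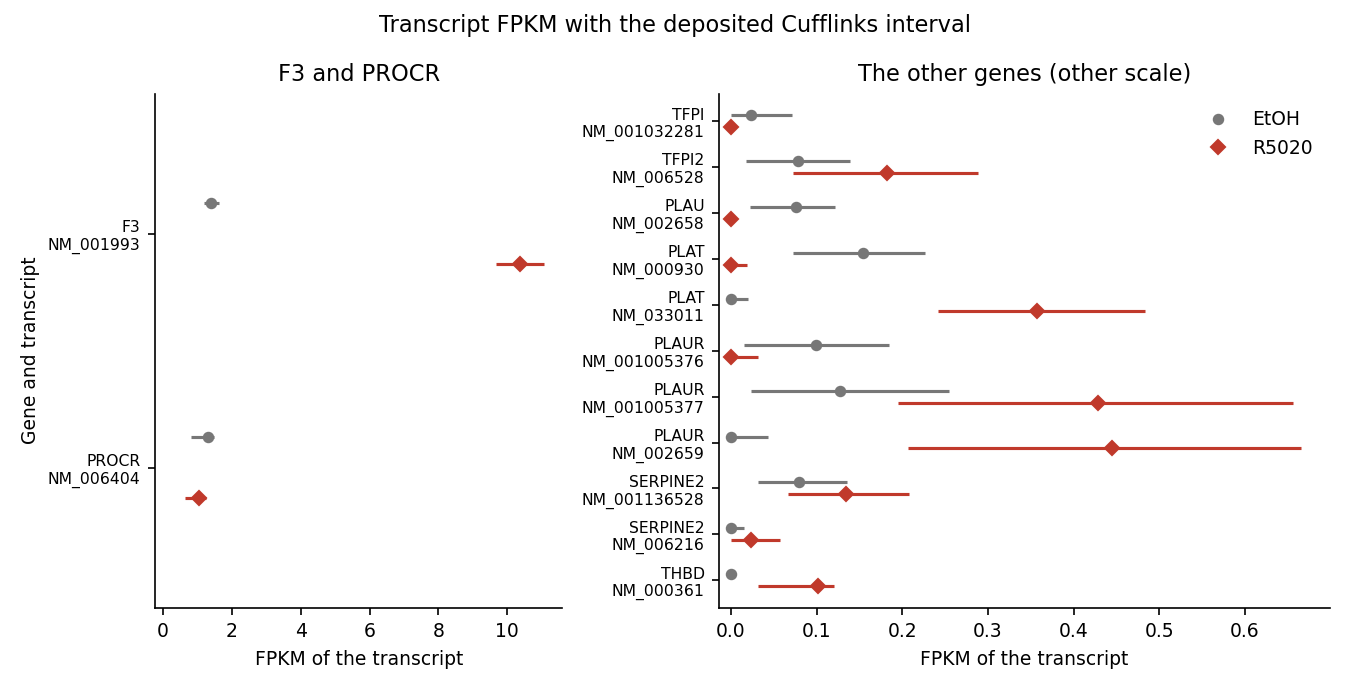
FPKM of each of the 13 transcripts that were above 0 in at least 1 library, with grey circles for EtOH, red diamonds for R5020 and lines for the deposited Cufflinks intervals. The left panel has *F3* and *PROCR* and the right panel the other genes on a scale that ends near 0.7 FPKM. The intervals of *F3* NM_001993 lie far apart, and those of *PROCR* overlap.

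By order of level the set read *F3*, *PROCR*, *PLAUR*, *PLAT* in both libraries. The Cufflinks intervals of *F3* and *PROCR* overlapped in EtOH and lay apart in R5020. In EtOH *PLAUR* and *PLAT* rested on 14 and 23 fragments, and the interval of *PLAT* overlapped those of the *PLAUR* transcripts above 0. Below *PLAT* the order changed between the libraries, and each gene there rested on 20 fragments or fewer. Counted over the set, 6 genes had a higher FPKM in R5020 and 3 (*TFPI*, *PLAU* and *PROCR*) a lower one. The median log2 ratio was 0.13, beside 0.01 over the expressed genes. Of the 2 genes that passed an FPKM of 1, 1 was at least 1.5-fold higher in R5020 and 0 were at least 1.5-fold lower, where 7.67% of the 11018 expressed genes were higher and 4.14% were lower (7.65% and 4.1% without the genes with a failed estimate). Without the limit on FPKM, 2 of the 9 (*F3* and *PLAUR*) were higher, beside 3.78% of all genes, and 0 were lower, beside 2.06%. These counts of 1.5-fold changes use the log2(FPKM + 1) scale. In plain FPKM *TFPI2*, *PLAT* and *SERPINE2* were also at least 1.5-fold higher, *THBD* was listed at 0 in EtOH, and *TFPI* and *PLAU* at 0 in R5020. At least 10 fragments were found for 4 of the 9 in EtOH and for 6 in R5020. Of the 13 transcripts above 0 in either library, 4 had a Cufflinks interval in R5020 wholly above that in EtOH and 2 had it wholly below, where 21.1% and 18.3% of 22471 transcripts did so. Several transcripts listed at 0 have an interval of no width. Since the set was picked with these values known, nothing is read from the counts.

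**Figure D3:**
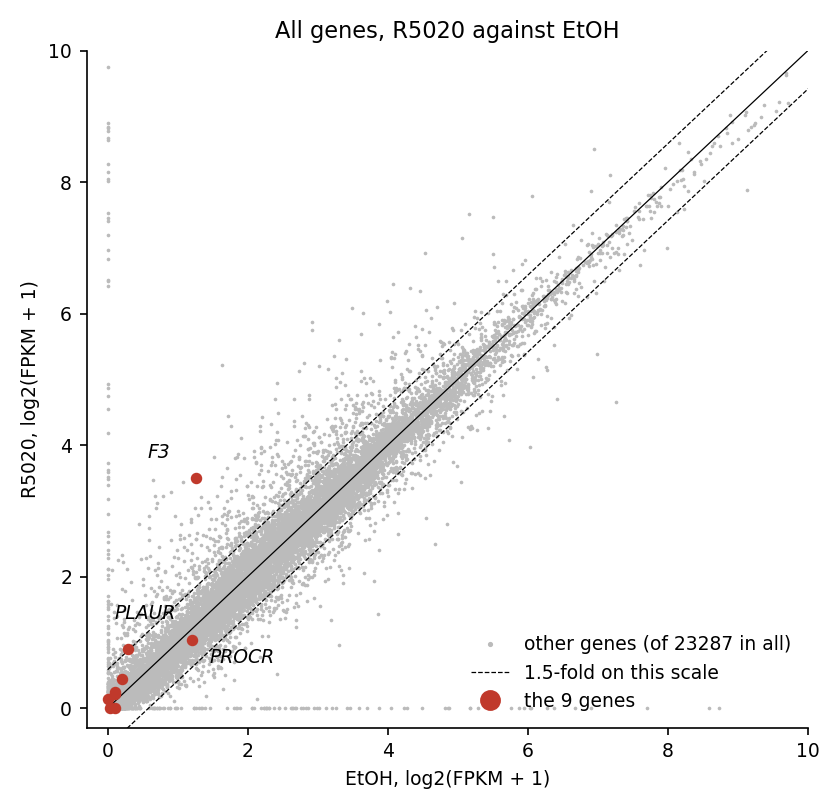
log2(FPKM + 1) in R5020 against EtOH for all 23287 genes (grey points), with the 9 genes as red circles, a solid line of equal level and dashed lines at 1.5-fold. *F3* lies well above the upper dashed line, *PLAUR* lies on its edge and *PROCR* between the lines. Grey points on the axes are genes listed at 0 in 1 library.

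The genes whose pair of levels was most like that of *F3*, by Euclidean distance between the log2(FPKM + 1) values of the 2 libraries, were *ATP10A*, *MYC* and *URB2*. *ATP10A*, a membrane phospholipid transporter, was 1.12 FPKM in EtOH and 9.90 FPKM in R5020, at a distance of 0.197. *MYC*, a growth-promoting transcription factor, was 1.53 FPKM and 8.31 FPKM, at a distance of 0.297. *URB2*, a nucleolar protein of ribosome biogenesis, was 2.10 FPKM and 10.5 FPKM, at a distance of 0.363. These 3 had a PR binding site inside the gene or, for *URB2*, 1005 bases from it.

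PR binding sites were then placed around the genes. A site was a region that the peak caller MACS found enriched over input DNA, with a score of 50 or more that grows as its p-value falls, and there were 11181. A site in or within 50 kb of the gene, the distance the study used, was found for 3 of the 9 genes, which held 4 sites in all. Of the expressed genes 52.7% had a site that near, and of all genes 45.7%. *F3* was not among the 3. Its nearest site, at chr1:95209548-95209974, lay 202 kb upstream and had a score of 109.81, above 89.1% of all sites. It falls between the genes *F3* and *SLC44A3* and overlaps no coding gene, and 2 of its 427 bases lie in an annotated exon. A further pair of sites lay upstream at 241 kb and 323 kb, with scores of 72.31 and 90.51. Of the expressed genes 24.2%, and of those at least 1.5-fold higher in R5020 18.8%, lay farther from a site than *F3* did, and 61.4% of the higher genes had a site within 50 kb.

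The genes that lie nearer to this site differed less between the libraries than *F3*. *SLC44A3*, a choline transporter-like protein, was 1.13 FPKM in EtOH and 1.19 FPKM in R5020, a log2 ratio of 0.03. *CNN3*, an actin-binding calponin, was 75.5 FPKM and 72.6 FPKM, a log2 ratio of -0.06. *LOC729970*, next to *CNN3*, was 0.611 FPKM and 0.340 FPKM, a log2 ratio of -0.27. On the other side of *F3*, *ABCD3*, a peroxisomal transporter, was 8.91 FPKM and 11.6 FPKM, a log2 ratio of 0.34. Whether PR at the distal site acts on *F3* was not tested, since the libraries hold no measure of contact between them.

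**Figure D4:**
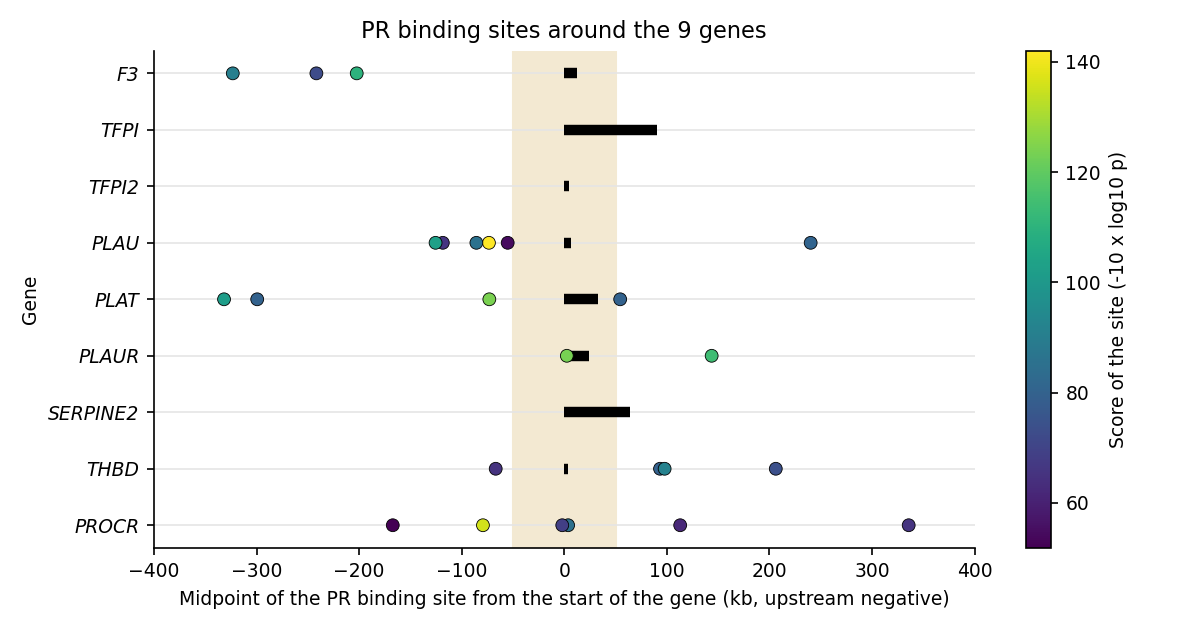
PR binding sites within 400 kb of the start of each gene (circles, coloured by the MACS score of the site), with upstream to the left, the extent of the gene as a black bar and the 50 kb on each side of the start shaded. *F3* has 3 sites, from 202 kb to 323 kb upstream, *PLAUR* and *PROCR* have sites at the gene, and *TFPI*, *TFPI2* and *SERPINE2* have no site on the map.

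*PLAUR* had the strongest of the 4 near sites, at chr19:44171653-44172396. Its score was 123.67, above 92.4% of all sites, and its midpoint was 2.47 kb downstream of the start of the gene. Counted over all annotated transcripts, 659 of its 744 bases fall in exons. *PROCR* had a site in an intron, at chr20:33763320-33763729 with a score of 85.3, above 70.6% of all sites. It also had a site 1758 bases before the gene, at chr20:33757583-33758015 with a score of 68.67, above 37.9%. The log2 ratio was -0.16 for *PROCR*, with these 2 sites, and 0.61 for *PLAUR*, with 1 site in the gene. *F3*, which had the largest ratio of the set, had none within 200 kb. Whether any of these sites acts on its gene was not tested. The site counted for *PLAT*, with a score of 79.94, lay 21.3 kb past the end of that gene, at the start of *AP3M2*, a subunit of a vesicle coat adaptor, which was 3.29 FPKM in EtOH and 4.99 FPKM in R5020. *PLAU* and *THBD* had their nearest sites at 55.0 kb and 66.6 kb, just outside the limit. *TFPI2* was 444 kb, *SERPINE2* 915 kb and *TFPI* 1120 kb from any site.

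The letters of the sites were compared with the response element on both strands. The distal *F3* site shown above had 15 bases that differed from the element at 2 of the fixed positions of its arms, which 3.53% of 11178 sites with sequence do or better. The 4 near sites had their best stretches at 4 mismatches or more, while 21.3% of all sites had 3 or fewer. For *PLAUR*, which had the highest score of the 4, this stretch is shown with the 15 bases in capitals, on the plus strand of hg19, at chr19:44172027-44172056. All 30 printed bases fall in an annotated exon and UTR.
PLAUR site: ccaccccaCTAACTGAACGTTCTatccctg
The right arm of the element alone, TGTTCT on either strand, was in 25.2% of all sites. The distal *F3* site and the near *PLAUR* site held 1 copy each, and the near sites of *PROCR* and *PLAT* held 0. A match is a likeness of letters only, and its absence says nothing about binding.

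The current RefSeq start of *F3* lies 98 bases inside the gene as the deposited transcripts place it, so the 250 bases before the RefSeq start are the 152 printed above and the 98 that follow them. Of these 250, 78% were G or C. They held 2 copies of TGANTCA, both in the printed stretch, 125 and 112 bases before the deposited start. They held 4 copies of GGGCGG on either strand, 2 of them in that stretch. TGANTCA was in 6.57% and GGGCGG in 42.6% of 35116 RefSeq promoter windows of that length. The nearest likeness to the response element in the *F3* window had 7 mismatches, and TGTTCT did not occur in it. Of the other genes, *TFPI2* and *PLAUR* had 1 copy of TGANTCA each. *THBD* and *PLAT* were not compared.

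The other genes of clotting and fibrinolysis were read from a list of 47, all of them measured. Only 10 passed an FPKM of 1, and 13 were listed at 0 in both libraries. Of the 10, 1 was at least 1.5-fold higher in R5020 and 0 were lower on the log2(FPKM + 1) scale, beside 7.67% and 4.14% of the expressed genes. In plain FPKM *HPN* also passed 1.5-fold, downwards, at 1.01 FPKM in EtOH and 0.650 FPKM in R5020. That was 0.644-fold with a counting interval from 0.437 to 0.950. The median log2 ratio of the 10 was -0.08, with a range from -0.30 to 0.75. The higher gene was *F2RL1*, which encodes protease-activated receptor 2, the receptor through which tissue factor complexes signal to the cell. It was 1.36 FPKM in EtOH and 2.99 FPKM in R5020, or 2.19-fold with a counting interval from 1.84 to 2.61, on 184 and 400 fragments, and its nearest PR site was 308 kb away. *F2R*, the thrombin receptor, named here after its values were seen, was 0.143 FPKM and 0.746 FPKM, or 5.22-fold with an interval from 3.0 to 9.10. *F12*, the coagulation factor of the contact pathway, also named after its values were seen, was lower, at 0.364 FPKM and 0.0270 FPKM, or 0.0741-fold with an interval from 0.0213 to 0.258. Of the 37 genes that did not pass an FPKM of 1, 19 were above 0 in both libraries, and of these the counting interval lay above a ratio of 1 for 2 and below it for 4. The other 2 receptors of that group were under 0.1 FPKM in both libraries.

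**Figure D5:**
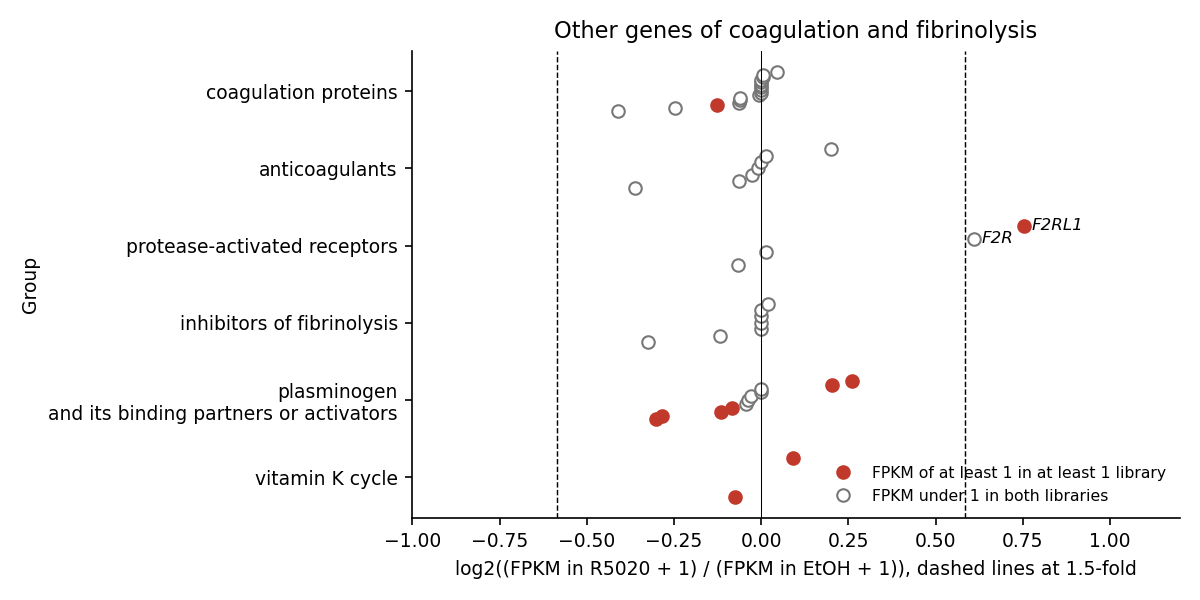
log2 ratio of R5020 to EtOH on the log2(FPKM + 1) scale for the 47 other genes of clotting and fibrinolysis, by group, filled where either library reached an FPKM of 1 and open where it was under 1 in both. *F2RL1* at 0.75 and *F2R* at 0.61 lie past the dashed line at 1.5-fold, and the other genes lie between the lines.

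Of the 16 coagulation proteins, most of them made by the liver, 1 (*F5*) passed an FPKM of 1, and 0 of the 7 other anticoagulants and 0 of the 7 inhibitors of fibrinolysis did. Plasminogen itself (*PLG*) was listed at 0 in both libraries. Of the group of plasminogen with its binding partners and activators, 6 of 11 genes passed an FPKM of 1. *S100A10*, a cell-surface plasminogen receptor, was 248 FPKM in EtOH and 297 FPKM in R5020, a log2 ratio of 0.26, and its partner *ANXA2* was 115 FPKM and 132 FPKM, a log2 ratio of 0.20. Both had a PR site inside the gene. The membrane protease *ST14* was 49.0 FPKM and 45.1 FPKM, a log2 ratio of -0.12, and it too had a PR site inside the gene. *ENO1*, *C9orf46* and *HPN*, the rest of the group that passed, were lower in R5020, with log2 ratios of -0.08, -0.30 and -0.28. Their nearest PR sites lay 67.9 kb, 678 kb and 39.7 kb away. The median log2 ratio of the 6 was -0.10. Of the list, 21 of 47 had a PR site within 50 kb, beside 45.7% of all genes.

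Several of these genes are best known in vessels, stroma or blood cells, so the markers of such cells were read in the same libraries. Of 6 endothelial markers 0 reached an FPKM of 1, their sum was 0.305 FPKM in EtOH and 0.376 FPKM in R5020, and *CDH5* and *TEK* were at 0 in both. Of 6 macrophage and platelet markers 0 reached it, with sums of 1.09 and 0.916 FPKM and *PF4* at 0. Of 6 fibroblast markers 2 did (*COL1A1* and *LUM*), with sums of 7.94 and 5.13 FPKM and *COL1A2* and *COL3A1* at 0. Of 8 luminal epithelial markers 6 reached it in EtOH and 8 in R5020, with sums of 1029 and 1159 FPKM. The missing ones, *KRT8* and *KRT18*, were listed at 0 in EtOH as failed estimates. Over the 6 others the sum was 1029 FPKM in EtOH and 699 FPKM in R5020, and all 6 were lower in R5020, among them *GATA3* at 253 and 126 FPKM and *FOXA1* at 64.3 and 14.7 FPKM. The part of this difference in the other results was not tested. By contrast, all 17 transcripts of the 9 genes had the status OK in both libraries.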

How the data were processed

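The authors sequenced 50-nt read pairs, trimmed them with Trimmomatic where needed, aligned RNA reads to hg19 with TopHat2 (unique reads only) and deposited Cufflinks FPKM, coverage and an FPKM interval for each RefSeq transcript. ChIP reads were aligned with Bowtie 1.1.2 (version as in the submitters' processing notes), and the deposited score of each PR site is the MACS score against input DNA. Here FPKM was summed over the transcripts of a gene, and log2 ratios used a pseudocount of 1. Genes that reached an FPKM of 1 in either condition were kept and a threshold of 1.5-fold was applied on the log2(FPKM + 1) scale. The deposited coverage times transcript length, over 100 nt a pair, gave fragment estimates, on which 95% counting intervals of a ratio rest. They cover counting error only, on estimated fragments. Site distances ran to the extent of all transcripts of a gene. Annotation came from GENCODE release 44 lifted to GRCh37, and promoters from RefSeq. Scripts used Python 3.11.15 with pandas 2.3.3. The input DNA library enters only through the MACS score. The 9 genes and the lists were chosen with earlier results of these data known. The genes named are the 9, genes of the pathway list that were kept and changed at least 1.5-fold, the 3 genes nearest to *F3* in level, genes near the sites, markers, and genes named as background to a list.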

Additional observations from a re-analysis of the deposited data

How the results depend on the processing

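With 1 library per condition no replicate could be left out. No paired analysis was possible because each condition had 1 library and no test was run. The log2 ratio of *F3* was 2.79 with a pseudocount of 0.1, and, as alternatives chosen after seeing the data, 2.88 with no pseudocount and 3.13 from coverage in place of FPKM, also with no pseudocount. Without the filter on FPKM, 2 of the 9 genes were at least 1.5-fold higher (*F3* and *PLAUR*) and 2 genes of the pathway list had changed, while at a threshold of 2-fold 0 genes of that list had. These counts use the log2(FPKM + 1) scale, on which *F2RL1*, 2.19-fold in plain FPKM, lay under 2-fold. Of all genes, 3.78% were at least 1.5-fold higher and 2.06% lower without the filter. With an FPKM threshold of 2, 1 of the 9 was kept. Within 100 kb, 5 of the 9 genes had a PR site and 12 sites were counted. With a score of at least 100, 1 gene and 1 site were left within 50 kb. The shares of all genes within 100 kb and at that score are not given here, so nothing is read from these counts. For the 5 other genes above 0 in both libraries, 3 of 20 alternatives moved the log2 ratio by more than the counting interval (*PLAT* with no pseudocount at 1.21, *PLAUR* at 1.57 with a pseudocount of 0.1 and at 1.94 with none) and 0 reversed it. *TFPI*, *PLAU* and *THBD*, at 0 in a library, have no such interval, and with a pseudocount of 0.1 their log2 ratios were -0.31, -0.82 and 1.01. Leaving out genes with a failed estimate, also chosen after seeing the data, moved the rank of *F3* from 67 to 64. Depth limits *TFPI*, *TFPI2*, *PLAU*, *SERPINE2* and *THBD*, which had fewer than 10 fragments in EtOH.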
